A study of Gossypium hirsutum with 6 samples.

Results

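A component of the Trinity assembly is a set of transcripts built from the same connected reads, and 5 of the 70875 components in the mRNA data of upland cotton differed in transcript makeup between lines while their summed level was nearly the same. They were chosen from the measured values themselves. A component was a member when it held 2 to 5 transcripts, its RPKM (reads scaled by transcript length and by mapped reads) summed to 10 or more in each line, its highest sum was below 1.4 times its lowest, and the share of at least 1 transcript in the sum differed by 0.3 or more between any 2 lines. All conditions but the last were met by 4089 components, called eligible here, so the members were 0.122% of them. The members were comp35631_c0, comp37049_c0, comp44037_c0, comp34052_c0 and comp38703_c0, with 21 transcripts in all.

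The libraries came from stem apexes of seedlings at the fifth true leaf stage, with 1 mRNA library from each of 3 lines of Gossypium hirsutum. The lines were the wild type Ari971 (A9), the dwarf mutant Ari1327 (A1) and the tall-culm mutant Ari3697 (A3), and both mutants were obtained from Ari971 by gamma irradiation. Each mutant is therefore a single irradiated line, and the number of plants behind a library is not given in the sources used here. The protocol in the labels also speaks of pooling equal RNA from the lines before library construction, while the genotype label assigns each library to 1 line, and the genotype label was followed here. Because there was 1 library per line, no value below has a replicate error, no test was made, and every difference is one between libraries. The same values chose the members, so they are given as a description.

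Plant genes commonly yield several mRNAs through alternative splicing, alternative starts and alternative polyadenylation, and the balance among these forms can change without a change in total output. Upland cotton is also an allotetraploid, so most genes are present as a pair of similar copies on the At and Dt subgenomes, and an assembler can place both copies in the same component. The word isoform is used here only for transcripts of the same component. Splice forms, homoeologous copies and alleles cannot be told apart from the deposited values, which carry no sequence.

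No member has a known function in the sources used here. The additional files of the study name or annotate transcripts of 512 components, and these include 83 of the 4089 eligible components and 0 of the 5 members. The same holds for the lists searched by keyword. Hormone terms were found for 3 eligible components, cell wall terms for 0, transcription terms for 12 and RNA processing terms for 7, and each list held 0 members. The tissue label was not checked against apex marker genes. The RPKM values name assembled transcripts rather than genes, and no marker list was given.

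The RPKM of all transcripts summed to 805778, 798674 and 800227 in A1, A3 and A9. The files hold neither the reads counted for each transcript nor the lengths of the member transcripts, so the counting error of a share is unknown. Among transcripts between 0.3 and 1.5 RPKM, the most frequent ratio of A1 to A9 was 1.085 and that of A3 to A9 was 1.115, as when the same small number of reads weighs more in the shallower library, which puts A9 as the deepest of the 3 libraries. How reads that match several transcripts of a component were assigned is not stated either, and the part of that choice in the shares was not tested.

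The 5 members fell into a group of 4 in which the dwarf mutant and the wild type lay at opposite ends, and a single component in which the tall-culm mutant differed from the other lines. For each component, the transcript with the widest range of share over the lines is called its lead transcript. A3 lay between A1 and A9 for the lead transcript of 4 of the 5 members, and A1 lay in the middle for the other. In none of them was A9, which is intermediate in height, the middle line. Among all eligible components A3 was the middle line in 35.4%, A1 in 32.3% and A9 in 32.3%. The order differed in the 36 eligible components with a share difference from 0.2 to below 0.3, where A9 was the middle line in 16 (44.4%), A3 in 11 (30.6%) and A1 in 9. A line was said to stand apart when its gap to the middle line was at least 2 times the gap between the other lines. A9 stood apart in 1 member, A3 in 1 and A1 in 0, and the other 3 had steps too even to assign, against 22.4%, 19.5% and 20.8% of eligible components for A9, A3 and A1. With 5 members, nothing is read from these positions.

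**Figure D1:**
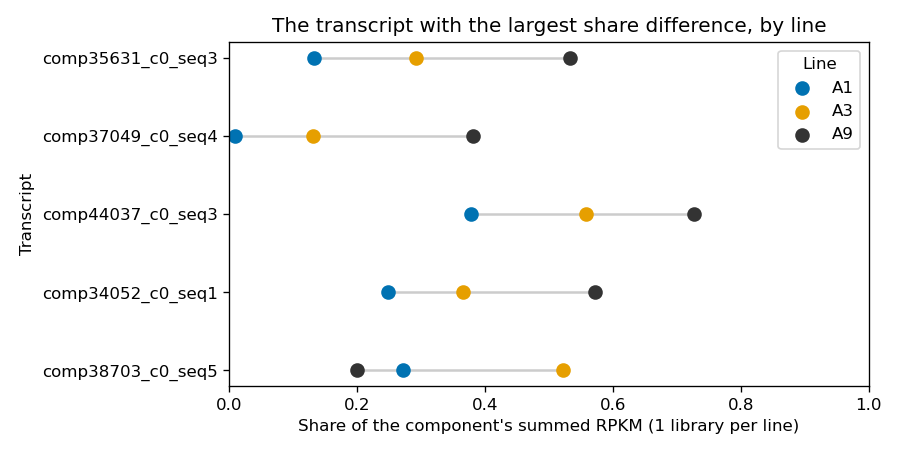
Share of the component sum (horizontal axis, 0 to 1) held by the lead transcript of each member, with 1 point per line and library. A1 is lowest, A3 in the middle and A9 highest in the upper 4 rows, while in comp38703_c0_seq5 A3 is highest at 0.521.

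The fullest exchange was seen in comp37049_c0, the most abundant member, whose 4 transcripts summed to 31.7, 35.5 and 29.4 RPKM in A1, A3 and A9. Its transcripts formed a pair that was high in the mutants and a pair that was high in the wild type. The transcript comp37049_c0_seq1 had 15.2, 14.7 and 3.40 RPKM in A1, A3 and A9. For comp37049_c0_seq2 the RPKM was 10.2, 6.80 and 0.79 in A1, A3 and A9. Both were higher in the mutants, by 4.47-fold and 12.9-fold in A1 and by 4.32-fold and 8.61-fold in A3. The opposite pattern held for comp37049_c0_seq3, with 5.95, 9.34 and 14.0 RPKM in A1, A3 and A9. The widest range of any member transcript, taken as a fold between its highest and lowest line, was that of comp37049_c0_seq4, at 0.31, 4.66 and 11.2 RPKM in A1, A3 and A9. Its level was 36.1-fold higher in A9 than in A1 and 2.40-fold higher in A9 than in A3. The first of these folds divides by 0.31 RPKM, the lowest value of any member transcript.

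As shares, comp37049_c0_seq1 and comp37049_c0_seq2 together held 0.802, 0.606 and 0.143 of the component in A1, A3 and A9. The lead transcript comp37049_c0_seq4 held 0.00979, 0.131 and 0.381 in A1, A3 and A9. The gap between A9 and A3 was 2.05 times that between A3 and A1, just past the limit, so A9 stood apart. In absolute terms the first pair was higher by 21.2 RPKM in A1 than in A9, and the second pair fell by 18.9 RPKM. The part of the component that would have to be reassigned to turn the makeup of one line into that of another was 0.660 between A1 and A9, 0.463 between A3 and A9 and 0.197 between A1 and A3. The most abundant transcript was comp37049_c0_seq1 in both mutants and comp37049_c0_seq3 in the wild type.

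**Figure D2:**
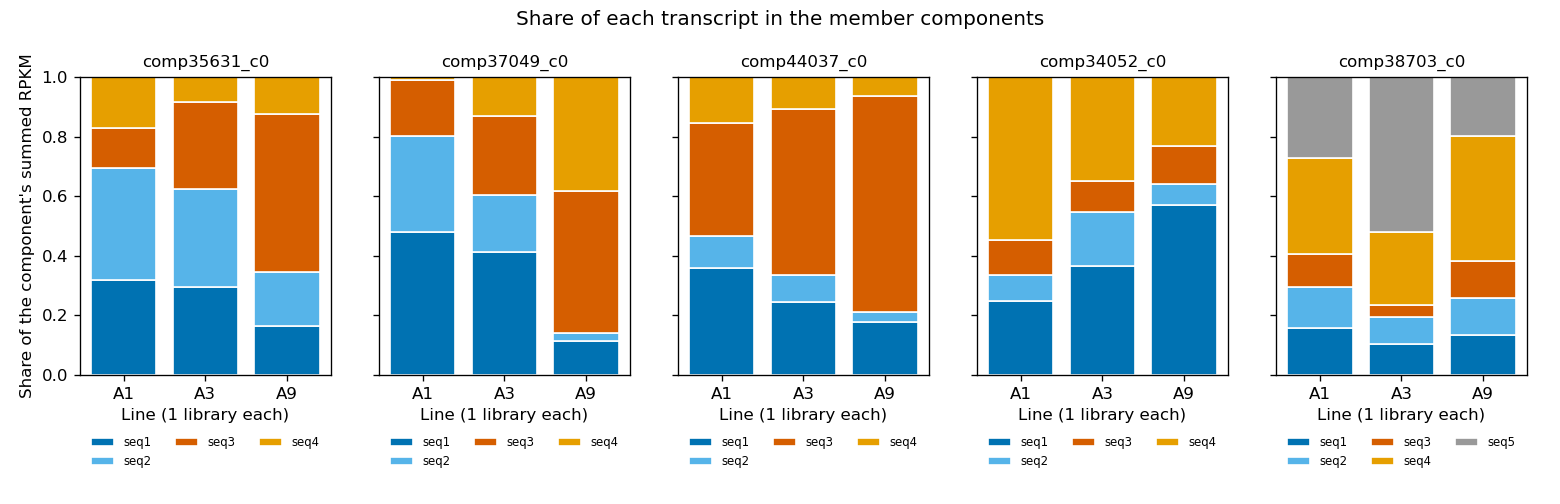
Share of each transcript in the summed RPKM of the 5 members (vertical axis, 0 to 1) in A1, A3 and A9, with 1 library per bar and colours for the seq numbers. In comp37049_c0 the blue transcripts take 0.802 of the bar in A1 and 0.143 in A9.

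The widest share difference belonged to comp35631_c0, in which a single transcript gave way to the others. Its sum was 10.6, 12.7 and 12.9 RPKM in A1, A3 and A9. The lead transcript comp35631_c0_seq3 had 1.4, 3.72 and 6.86 RPKM in A1, A3 and A9, so it was lowest in the dwarf mutant and its share was 0.132, 0.292 and 0.533. The difference of 0.401 in share between A1 and A9 was the largest among the eligible components. All 3 other transcripts had a higher share in A1 than in A9, and most of that difference lay in comp35631_c0_seq1, with 3.39, 3.76 and 2.10 RPKM in A1, A3 and A9, and comp35631_c0_seq2, with 3.99, 4.19 and 2.34 RPKM. They kept nearly the same ratio to each other, 0.850, 0.897 and 0.897 in A1, A3 and A9, while each was 1.79-fold higher in A3 than in A9. The remaining transcript, comp35631_c0_seq4, had 1.83, 1.06 and 1.58 RPKM in A1, A3 and A9, so it was highest in the dwarf mutant and lowest in the tall-culm mutant.

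The exchange in comp35631_c0 was not even. From A9 to A1 comp35631_c0_seq3 fell by 5.46 RPKM, and the other transcripts together were higher by 3.19 RPKM, so the sum was lower in A1. The most abundant transcript was comp35631_c0_seq2 in A1 and A3 and comp35631_c0_seq3 in A9. The gap from A9 to A3 was 0.240 in share and that from A3 to A1 was 0.160, so no line stood apart. A further transcript of the same graph, comp35631_c1_seq1, is counted as a separate component and had 0, 0.45 and 0.60 RPKM in A1, A3 and A9. None of the other 4 members has such a neighbour.

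In comp44037_c0 the wild type relied on a single transcript more than the mutants did. The sum was 12.6, 10.3 and 10.7 RPKM in A1, A3 and A9. The lead transcript comp44037_c0_seq3 had 4.74, 5.76 and 7.76 RPKM in A1, A3 and A9, and its share was 0.377, 0.558 and 0.727. It was the most abundant transcript in all 3 lines, which makes comp44037_c0 the only member without a change at the top. The other 3 transcripts were each lowest in A9 and highest in A1. For comp44037_c0_seq1 the RPKM was 4.50, 2.54 and 1.91 in A1, A3 and A9. The levels of comp44037_c0_seq2 were low, at 1.38, 0.92 and 0.33 RPKM in A1, A3 and A9. In comp44037_c0_seq4 they were 1.94, 1.11 and 0.67 RPKM.

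The steps of comp44037_c0_seq3 were the most even of the members, with 0.180 in share from A1 to A3 and 0.170 from A3 to A9. The effective number of transcripts, which is 1 over the sum of squared shares and equals the number of transcripts when all are equal, was 3.26, 2.56 and 1.77 in A1, A3 and A9. From A9 to A1 the lead transcript fell by 3.02 RPKM and the other 3 together were higher by 4.91 RPKM.

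In comp34052_c0 a pair of transcripts exchanged places. Its sum was the steadiest of the 5 members, with 11.6, 11.9 and 12.7 RPKM in A1, A3 and A9, a ratio of 1.1 between highest and lowest. The transcript comp34052_c0_seq1 had 2.87, 4.35 and 7.25 RPKM in A1, A3 and A9. The RPKM of comp34052_c0_seq4 was 6.33, 4.15 and 2.95 in A1, A3 and A9. The share of comp34052_c0_seq1 was 0.248, 0.366 and 0.572 in A1, A3 and A9, and that of comp34052_c0_seq4 was 0.548, 0.349 and 0.233. Each was therefore the larger in a different line, and in A3 they were nearly equal, at a ratio of 1.05.

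The other transcripts of comp34052_c0 moved less in absolute terms. The level of comp34052_c0_seq3 was 1.34 RPKM in A1 and 1.59 in A9, and it was lowest in A3, with A9 1.27-fold higher. A second pattern appeared in comp34052_c0_seq2, which was highest in the tall-culm mutant at 2.13 RPKM, against 1.01 in A1 and 0.88 in A9. That transcript was 2.42-fold higher in A3 than in A9 and 1.15-fold higher in A1 than in A9.

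The tall-culm mutant differed from both other lines in comp38703_c0, the only member of 5 transcripts. The sum was 20.9, 18.5 and 23.5 RPKM in A1, A3 and A9, the least steady of the members at a ratio of 1.27. The lead transcript comp38703_c0_seq5 had 5.66, 9.66 and 4.67 RPKM in A1, A3 and A9, and a share of 0.271, 0.521 and 0.199. Its gap between A3 and A1 was 3.48 times that between A1 and A9. All 4 other transcripts were lowest in A3. For comp38703_c0_seq4 the RPKM was 6.72, 4.54 and 9.85 in A1, A3 and A9, and for comp38703_c0_seq3 it was 2.33, 0.72 and 2.89.

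The remaining transcripts of comp38703_c0, comp38703_c0_seq1 and comp38703_c0_seq2, were close to each other in every line. The former had 3.29, 1.91 and 3.16 RPKM in A1, A3 and A9, and the latter 2.88, 1.70 and 2.89 RPKM. Their ratio was 1.14, 1.12 and 1.09, so both were lower in the tall-culm mutant to the same extent. From A9 to A3 comp38703_c0_seq5 was higher by 4.99 RPKM, while the other 4 transcripts together fell by 9.92 RPKM, of which comp38703_c0_seq4 fell by 5.31 RPKM. The exchange was thus uneven, and the sum fell by 4.93 RPKM. The most abundant transcript was comp38703_c0_seq4 in A1 and A9 and comp38703_c0_seq5 in A3.

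**Figure D3:**
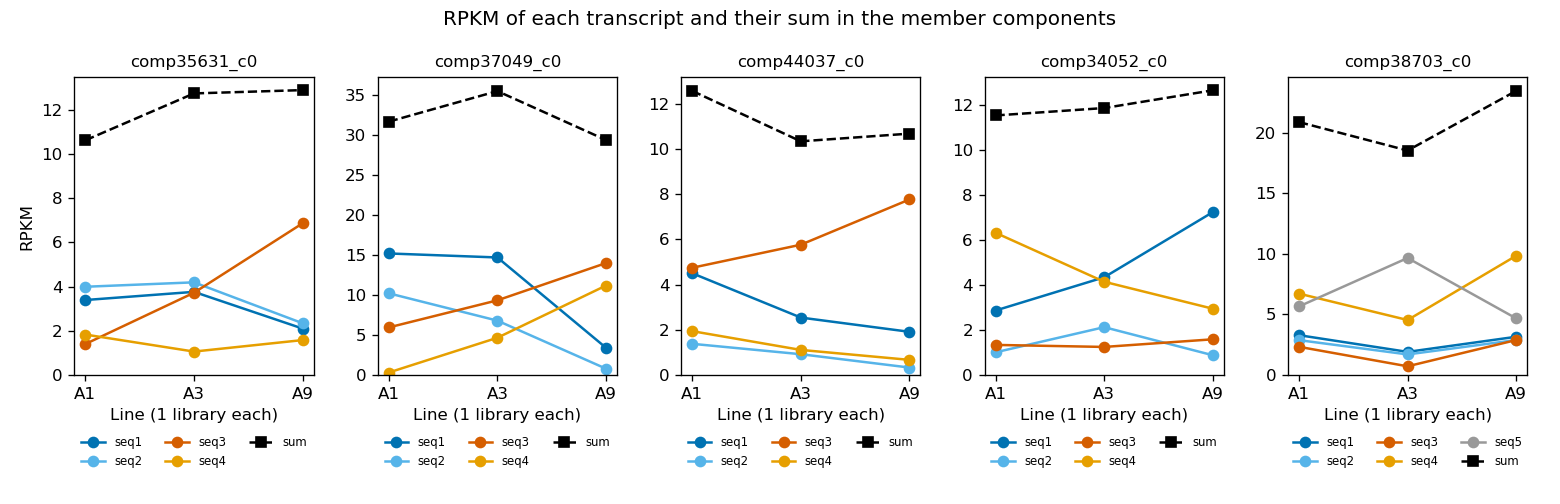
RPKM of each transcript (circles) and of their sum (black squares) in the 5 members, by line, with 1 library per point and lines drawn only to join the points of a transcript. In comp34052_c0 the sum stays between 11.6 and 12.7 RPKM while comp34052_c0_seq1 and comp34052_c0_seq4 cross.

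The most abundant transcript was not the same in all 3 lines in 4 of the 5 members, whereas this was so in 18.5% of the eligible components. The members were chosen for large share differences and all held 4 or 5 transcripts, so nothing is read from this contrast. When the top transcript had to lead the next by at least 0.1 in share in each of 2 lines, the change remained in comp34052_c0 and comp38703_c0, that is in 2 members. How often eligible components kept a change under this margin was not counted, so the 18.5% is no reference for it. No member transcript was listed at 0 in any line, and their levels ranged from 0.31 to 15.2 RPKM. The share of transcripts at 0 among the eligible components was not counted, so nothing particular to the members is read from this.

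Among pairs of lines, A1 and A9 differed by 0.3 or more in share in 4 eligible components (0.0978%), A3 and A9 in 1 (0.0245%), and A1 and A3 in 0 (0%). The pairs share libraries, so these counts are not independent of one another. Of the 21 member transcripts, 6 were at least 2-fold higher in A1 than in A9 and 4 at least 2-fold lower, where 1.24% of the 12284 transcripts of eligible components passed in each direction. Between A3 and A9, 5 were higher and 3 lower, beside 1.12% and 1.19%. Between A1 and A3, 1 was higher in A1 and 3 lower, beside 1.13% and 1.07%. The members were chosen for differences of this kind, so nothing is read from these shares. The transcripts at least 2-fold higher in both mutants than in A9 were comp37049_c0_seq1, comp37049_c0_seq2 and comp44037_c0_seq2, and comp37049_c0_seq4 was the only one at least 2-fold lower in both. Of these, comp44037_c0_seq2 was low throughout, with 0.33 RPKM in A9 and 0.92 in A3. The share of eligible transcripts that passed in both mutants was not counted, so nothing is read from these calls either. The A9 library is common to these comparisons.

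Outside the members, most pairs of transcripts of the same component kept a similar ratio across the lines. For each pair of transcripts of a component, the ratio of their RPKM was taken in each line, and the spread of a pair is its highest ratio over its lowest. Pairs with a transcript at 0 in any line were left out. The median spread was 1.2 over 9709 pairs in the other eligible components of 4 or 5 transcripts, and 62.1% of those pairs stayed below 1.3. The sums of eligible components were steady by the rule, so a kept ratio does not show that both transcripts changed together. The members were chosen for share differences, which change the ratios within a component, so a wider spread in them follows from the choice. Nothing is read from this contrast. In the members the median over 34 pairs was 3.32, and 3 pairs (8.82%) stayed below 1.3. These were comp35631_c0_seq1 with comp35631_c0_seq2 and comp38703_c0_seq1 with comp38703_c0_seq2, whose spreads were 1.06 and 1.04, and comp44037_c0_seq1 with comp44037_c0_seq4, whose ratio was 2.32, 2.29 and 2.85 in A1, A3 and A9. In each of these pairs both transcripts were on the same side of the exchange. The widest spread, 467, was that of comp37049_c0_seq2 against comp37049_c0_seq4. It rests on low values, 0.79 RPKM of comp37049_c0_seq2 in A9 and 0.31 RPKM of comp37049_c0_seq4 in A1.

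Large share differences were rare and were found mostly at low levels. The largest share difference of a component had a median of 0.0379 over the eligible components, and 99% of them were at or below 0.2. The lowest sum of the members over the lines was from 10.3 to 29.4 RPKM, with a median of 11.6, against a median of 21.4 RPKM over the eligible components. Among the 630 eligible components with at least 50 RPKM in each line the highest share difference was 0.253. All 5 members held 4 or 5 transcripts, as did 31.8% of the eligible components, and the highest share difference among the 1784 components of 2 transcripts was 0.264. The median share difference fell as level rose. By number of transcripts it was 0.028 for 2, 0.047 for 3, 0.0383 for 4 and 0.0488 for 5, so it did not rise steadily. The reads behind each transcript are not in the files, so the part of sampling of reads in these shifts was not tested. The member comp37049_c0, at 29.4 RPKM or more in each line, lay farthest from the lower limit.

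**Figure D4:**
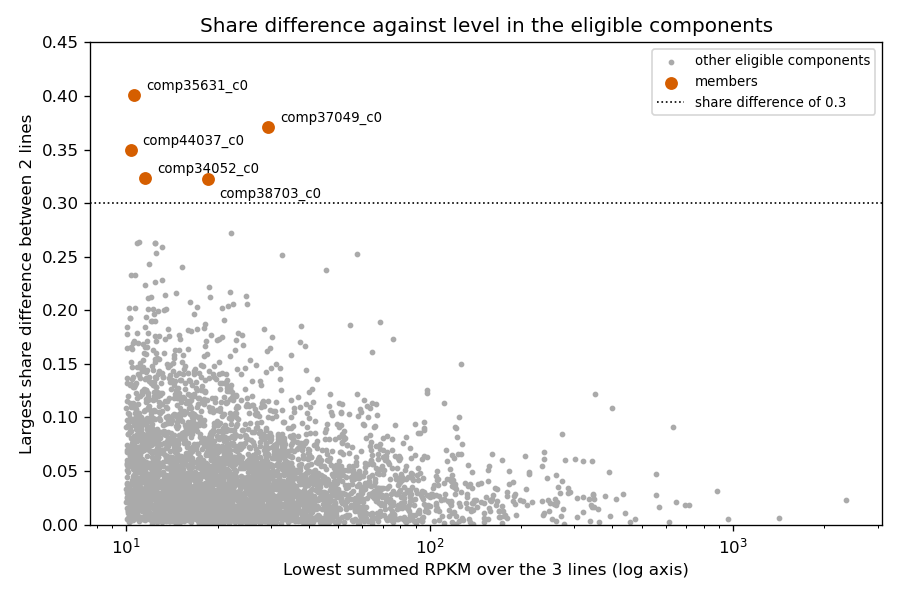
Largest share difference between 2 lines (vertical axis) against the lowest summed RPKM over the lines (horizontal log axis) for the 4089 eligible components, 1 point each, with the 5 members in orange. The members lie above the dotted line at 0.3, and 4 of them have a lowest sum under 20 RPKM, as do 1855 of the 4089 eligible components.

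A gap separated the members from the next components. The members nearest above the limit were comp38703_c0 and comp34052_c0, at 0.322 and 0.324, and comp44037_c0 at 0.35. Just below it were comp33494_c0 at 0.272, comp33956_c0 at 0.264 and comp39089_c0 at 0.263. In comp33494_c0 the lead transcript comp33494_c0_seq2 had 7.81, 16.7 and 6.17 RPKM in A1, A3 and A9, so it was highest in the tall-culm mutant, as comp38703_c0_seq5 was. For comp33956_c0_seq1 the RPKM was 4.47, 7.75 and 7.14 in A1, A3 and A9, and for comp39089_c0_seq1 it was 8.83, 4.07 and 7.70. On the steadiness of the sum, the members nearest the limit of 1.4 were comp38703_c0 at 1.27 and comp44037_c0 at 1.22. Among the 1198 components of 2 to 5 transcripts that reached 10 RPKM but did not have a steady sum, 5 had a share difference of 0.3 or more (0.417%).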

How the data were processed

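The authors filtered the reads, assembled the clean reads of the A1, A3 and A9 libraries together with Trinity, and deposited 1 RPKM value per transcript and line, to 2 decimals. Mapper, counter and the assignment of reads shared by several transcripts are not given in the sources used here. The files were joined by transcript name, and a component is the name without its seq number. The share of a transcript is its RPKM over the component sum, so it is per length and a common scaling of a library leaves it unchanged. No pseudocount and no test was used, as there was 1 library per line. The code of the rule was checked on simulated components with planted share shifts and no read noise, which says nothing about the members. The members, lists and rules were chosen with earlier results of these data known. Named were all members by 1 or more parts of a rule on share range, level, gap and annotation, and the 3 eligible components nearest below the share limit. Alternatives changed each limit, the scaling, the pseudocount and the definition of a component. Small RNA data were not used, and no sequence is shown because none of the members has one in the sources used here. Python 3.11.15, numpy 2.4.6, pandas 2.3.3 and matplotlib 3.10.9 were used.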

Additional observations from a re-analysis of the deposited data

Results flagged for a closer look

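A transcript drew attention when its share was higher than in A9 in one mutant and lower than in A9 in the other. These differences were not tested, since there was 1 library per line. Among member transcripts, the share of comp35631_c0_seq4 was higher by 0.0498 in A1 than in A9 and fell by 0.0394 in A3. The share of comp38703_c0_seq1 was higher by 0.0229 in A1 and fell by 0.0316 in A3, and that of comp38703_c0_seq2 was higher by 0.0147 and fell by 0.0314. In RPKM, comp38703_c0_seq2 was nearly equal in A1 and A9, at 2.88 and 2.89, while the component sum was lower in A1. By construction, A9 lies between the mutants in every such transcript. How often transcripts of eligible components showed this pattern was not counted. For the lead transcript alone, A9 was the middle line in 32.3% of eligible components, so nothing is read from these flags. Of the 3 components just below the share limit, where the lead transcript alone was examined, comp33956_c0 and comp39089_c0 showed the same pattern and comp33494_c0 did not. The share of comp33956_c0_seq1 fell by 0.125 in A1 (-0.125 against A9) and was higher by 0.139 in A3. The share of comp39089_c0_seq1 was higher by 0.0738 in A1 and fell by 0.189 in A3.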

How the results depend on the processing

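No paired analysis was possible because the lines have a single library each. The number of members, 5, was 41 at a share difference of 0.2, 1 at 0.4, 29 at a sum of at least 5 RPKM, 1 at 20, 0 at 50, and 0 for components of 2 transcripts only. With 1 added to every RPKM it was 4, of which 2 were members (comp35631_c0 and comp37049_c0). A stricter limit on the ratio of the sums left 4 members, without comp38703_c0, and under the other 7 alternatives, both scalings included, the same 5 components were found. Several of the 7 could hardly lose a member. Scaling a library leaves its shares unchanged, and a looser limit on the ratio of the sums or on size can only keep or add members. A9 stood apart in 2 members at a gap of 1.5 times and in 0 at 3 times, while A3 and A1 stayed at 1 and 0 under all 4 alternatives. The line that stood apart was always counted over the same 5 components. With 1 added to every RPKM, comp38703_c0, where A3 stood apart, was itself no longer a member. The 4 changes of the most abundant transcript became 2 with the margin of 0.1. Between A1 and A9 the 4 components became 16 at a share difference of 0.2, 2 with 1 added, and 0 at 50 RPKM. Between A3 and A9 the 1 became 14 at 0.2 and 0 at 50 RPKM. Between A1 and A3 the 0 became 19 at 0.2 and 1 with 1 added.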
